A study of Mus musculus with 4 samples.

Results

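Spp1 and Clu are the 2 genes described here, of 32285 genes in the deposited tables. They were chosen by name, as secreted proteins of the injured kidney. The spatial transcriptomes of 4 mouse kidney sections were used, 2 normal and 2 ischemic. All came from the left kidney of WT C57BL/6J male mice aged 7 to 8 weeks. The ischemic kidneys had both renal pedicles clamped for 30 min and were taken 24 h later, and the normal kidneys were controls. Sections were 10 µm thick. The paper used 2 slides, and the sample labels do not say which slide held each section. The labels do not give the mouse of each section, so p-values measure the spread between sections, which may be technical.

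Spp1 encodes osteopontin, an acidic phosphorylated glycoprotein that binds integrins and CD44 and slows the growth of calcium crystals in urine. Clu encodes clusterin, an extracellular chaperone that also holds back the membrane attack complex of complement. In the healthy kidney both proteins are known mainly from distal parts of the nephron, and both are used as markers of tubular damage. Spp1 (ENSMUSG00000029304) lies at chr5:104435118-104441050 and Clu (ENSMUSG00000022037) at chr14:65968483-65981547, both on the plus strand of GRCm38 and both protein-coding.

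The reference promoter table held windows for only 1 of the 2 genes, Spp1, which had 2. The 250 bases before the first RefSeq start (GRCm38.p6, chr5:104434861-104435110, plus strand) are shown. Capitals mark a match to the RUNX motif AACCACA and a CCAAT box read on the opposite strand.

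Spp1: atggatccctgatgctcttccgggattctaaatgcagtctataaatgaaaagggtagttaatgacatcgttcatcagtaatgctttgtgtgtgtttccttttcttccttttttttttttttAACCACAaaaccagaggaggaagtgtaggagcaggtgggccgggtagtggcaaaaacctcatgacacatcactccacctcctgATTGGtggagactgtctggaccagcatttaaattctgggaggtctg

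The RUNX match began 129 bases before the start, and 4.40% of 32851 promoter windows of this length held that motif on either strand. The CCAAT match began 46 bases before the start, and 33.8% of windows held one. TATAAA was found once, 211 bases before the start, against 12.4% of windows. None of the other searched letters was in this window, namely TGANTCA for AP-1 (6.75% of windows), GAANNTTC for a heat shock element (6.69%) and TTCNNNGAA for STAT (7.02%). The matches did not overlap and describe the letters only.

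Spatial depth was 25957128 to 44528078 UMIs per section, over 2401 to 2682 tissue spots with medians of 8656 to 16162.5 UMIs per spot. A UMI is 1 captured transcript molecule, read from its 3′ end, so counts do not scale with transcript length. A spot can hold several cells of different types. The injury markers Havcr1, which encodes KIM-1 of damaged proximal tubule, and Lcn2, which encodes NGAL, were far higher in the ischemic sections, with log2 fold changes of 9.64 ± 0.28 and 8.78 ± 0.27 (± SE). The sections thus carried the injury that their labels name.

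Spp1 rose from a moderately abundant transcript to the gene with the second most UMIs in both ischemic sections. Its counts per 1000000 UMIs (CPM) were 729 in normal section 1, 1222 in normal section 2, 36124 in ischemic section 1 and 37818 in ischemic section 2, and pairs of values keep this order from here on. It ranked 215 and 112 among all genes in the normal sections. About 1 UMI in 1372 and 1 in 818 came from Spp1 in the normal sections, and 1 in 27.7 and 1 in 26.4 in the ischemic ones. As shares of all UMIs these were 0.0729% and 0.122% against 3.61% and 3.78%. The means were 36971 ± 1197 CPM in ischemic and 976 ± 349 CPM in normal kidney (SD, n = 2 each). On the TMM-normalised scale the log2 fold change was 4.999 ± 0.33 (SE), or 32.0-fold, with an adjusted p of 2.73e-06 by edgeR's quasi-likelihood test. It was the 91st largest rise of 15305 genes tested.

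Clu followed at a lower share. It stood at 200 and 293 CPM in the normal sections and at 4214 and 4518 CPM in the ischemic ones. Its share of all UMIs went from 0.0200% and 0.0293% to 0.421% and 0.452%, and its rank from 699 and 496 to 14 and 13. The mean was 247 ± 65.6 CPM in normal and 4366 ± 215 CPM in ischemic sections (SD, n = 2 each). The log2 fold change was 3.89 ± 0.20 (SE), or 14.8-fold, with an adjusted p of 7.51e-07 in the same edgeR fit, the 174th largest rise. Together the pair made up 4.03% and 4.23% of all UMIs of ischemic sections 1 and 2. Both genes passed the test upward, where 31.0% of all genes tested did, while 29.7% passed downward. Of the called genes 51.1% were higher, and 67.0% when total counts took the place of TMM factors.

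The ratio of the 2 genes also moved. There were 3.64 and 4.17 Spp1 UMIs for each Clu UMI in normal kidney, against 8.57 and 8.37 in ischemic kidney. In whole sections more cells of a type and more RNA per cell cannot be told apart.

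Markers of other cells moved with the condition too. The summed CPM of 8 macrophage markers, from a cell type that can make osteopontin, was 198 and 282 in normal kidney, against 234 and 228 in ischemic kidney, so the groups overlapped. Neutrophil markers (4 genes) went from 1.39 and 2.06 to 176 and 176 CPM, and fibroblast markers (4 genes) from 124 and 209 to 267 and 276 CPM. Erythroid markers (4 genes) went from 8874 and 9027 down to 763 and 1614 CPM, and adipocyte markers (3 genes) from 237 and 113 to 0.71 and 0.69 CPM. All markers of these lists were detected in every section. Across the spots of the ischemic sections, Spearman's rho of Spp1 with the neutrophil list was -0.065 and -0.126, with the macrophage list 0.283 and 0.193, and with the fibroblast list 0.393 and 0.323. Within the ischemic inner stripe, where Spp1 was highest, they were -0.135 and -0.186 for macrophages and -0.151 and -0.139 for fibroblasts. For Clu over all ischemic spots the values were -0.010 and -0.073 with neutrophils, 0.261 and 0.161 with macrophages and 0.309 and 0.247 with fibroblasts. In the ischemic outer stripe both genes had positive values with the neutrophil, macrophage and fibroblast lists. For Clu they were 0.173 and 0.193 with neutrophils and 0.291 and 0.232 with macrophages. For Spp1 they were 0.068 and 0.082 with neutrophils and 0.196 and 0.137 with macrophages. The part of these cells in the rise was not tested.

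Kidney zones were drawn from marker genes of cortex, outer stripe, inner stripe, inner medulla and pelvis. In the normal kidney, osteopontin transcripts were highest in the pelvis, the urine-collecting space lined by urothelium. Spp1 stood there at 5416 and 7294 CPM in sections 1 and 2. The inner medulla followed with 1181 and 2973 CPM, then the cortex with 803 and 918 CPM, the inner stripe with 497 and 1098 CPM and the outer stripe with 263 and 443 CPM. Each step in this order held in both sections except that of cortex over inner stripe, where the sections overlapped. Clu was likewise highest in the normal pelvis, at 951 and 1446 CPM. It was 316 and 389 CPM in the cortex, 215 and 287 CPM in the inner medulla, 38.5 and 64.3 CPM in the outer stripe and 34.6 and 54.3 CPM in the inner stripe, with overlap between the stripes only.

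After ischemia the order changed. Spp1 was highest in the inner stripe, the home of the medullary thick ascending limb, at 70080.5 and 72864 CPM. It was 62479 and 69626 CPM in the inner medulla, 42073 and 39230.3 CPM in the pelvis, 27142 and 25610.4 CPM in the cortex and 26209 and 25489.6 CPM in the outer stripe, and only the last 2 zones overlapped. In the inner stripe Spp1 was 7.01% and 7.29% of the zone's UMIs. Clu stood at 7297 and 7511 CPM in the inner stripe, 6087 and 8283 CPM in the pelvis and 6616 and 7438 CPM in the inner medulla, and these 3 zones overlapped. The cortex, with 3570.4 and 3513 CPM of Clu, and the outer stripe, with 2947 and 2846 CPM, were lower.

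**Figure D1:**
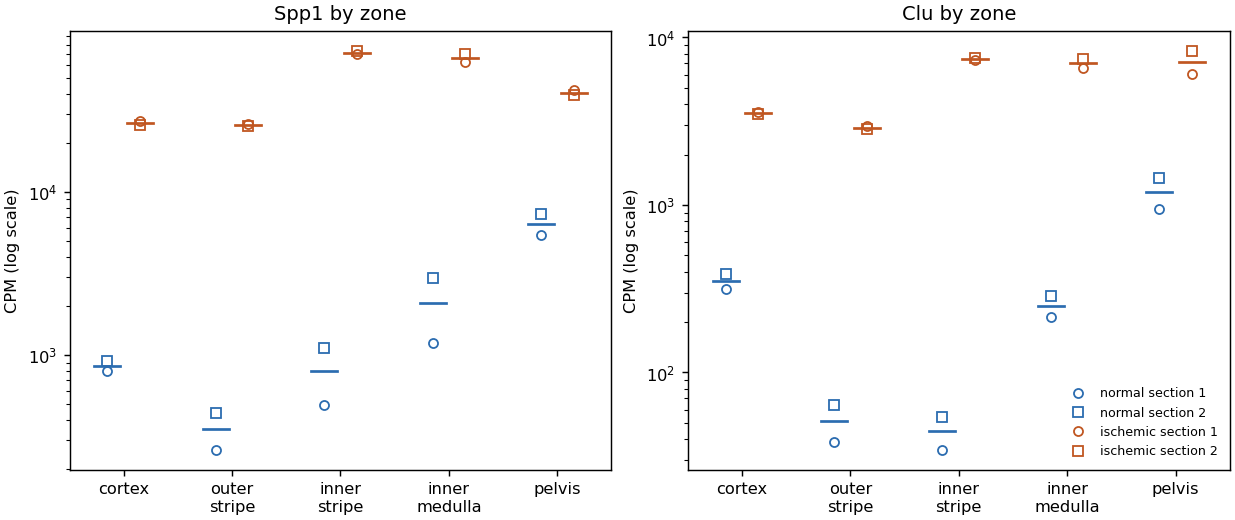
CPM of Spp1 (left) and Clu (right) on a log axis in 5 kidney zones, with circles for section 1, squares for section 2, blue for normal, orange for ischemic and bars for the mean of 2 sections. Every ischemic value lies above every normal value of its zone, and the normal peak in the pelvis (5416 and 7294 CPM of Spp1) gives way to a peak in the inner stripe for Spp1 (70080.5 and 72864 CPM).

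Both genes rose in all 5 zones (edgeR's quasi-likelihood test on sums per section and zone, ± SE). For Spp1 the log2 fold change was 6.22 ± 0.32 in the inner stripe, 5.82 ± 0.31 in the outer stripe, 4.84 ± 0.30 in the inner medulla, 4.72 ± 0.30 in the cortex and 2.59 ± 0.27 in the pelvis. For Clu it was 7.09 ± 0.24 in the inner stripe, 5.44 ± 0.22 in the outer stripe, 4.60 ± 0.21 in the inner medulla, 3.12 ± 0.19 in the cortex and 2.49 ± 0.19 in the pelvis. The largest adjusted p of these edgeR tests was 1.45e-06, for Spp1 in the pelvis. Zones of a section share its tissue and library but entered this fit as separate samples, so its SEs and p-values can be too small. Of all 14001 genes tested, 22.6% passed upward in the inner stripe, 27.9% in the outer stripe, 14.5% in the inner medulla, 20.8% in the cortex and 10.9% in the pelvis. The pelvis, with the highest normal levels, thus had the smallest rise, but with zones drawn from the spot alone Clu rose by 3.04 in the pelvis and 2.96 in the cortex.

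**Figure D2:**
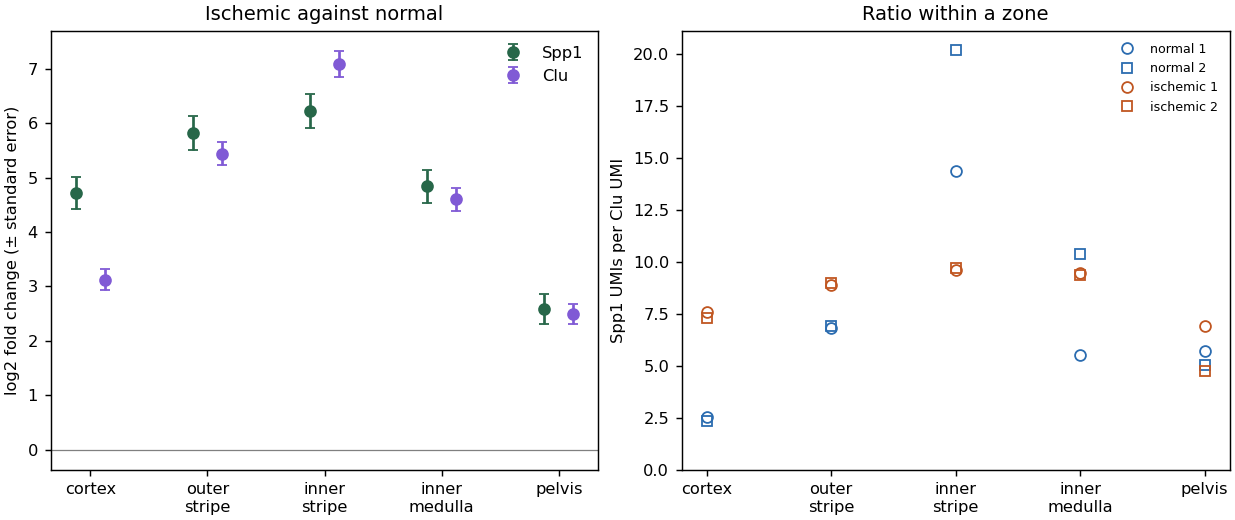
Left, log2 fold change of ischemic against normal for Spp1 and Clu in each zone, with SE from edgeR; right, Spp1 UMIs per Clu UMI in each zone of each section. The rise is largest in the inner stripe (6.22 for Spp1, 7.09 for Clu) and smallest in the pelvis (2.59 and 2.49; for Clu the cortex is lowest with zones from the spot alone), and the ratio spans 2.36 to 20.2 in normal zones and 4.74 to 9.70 in ischemic zones.

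Whether zones differed in their response was tested against the cortex, with section as a block, and the changes in this contrast were largest for Clu. In normal sections Clu was lower in the inner stripe than in the cortex by a log2 difference of -3.26 (95% interval -3.54 to -2.98), and in ischemic sections higher by 0.70 (0.47 to 0.94). The change of that contrast with ischemia was 3.96 ± 0.17 (SE; adjusted p = 2.68e-11, edgeR). For Spp1 the same contrast went from -0.48 (-0.79 to -0.17) to 1.08 (0.78 to 1.39), a change of 1.56 ± 0.21 (adjusted p = 1.43e-05, edgeR). Clu thus turned from lower to higher in the inner stripe than in the cortex. The normal difference of Spp1 was not stable, since its CPM was higher in the inner stripe in normal section 2, and the difference was -0.10 without normal section 1 (adjusted p = 0.48, edgeR), -0.23 with total counts (adjusted p = 0.28, edgeR) and missed the threshold without either ischemic section too (-0.48 and -0.49). For the inner stripe against the cortex, 29.2% of all genes passed in normal sections, 49.0% in ischemic sections and 18.7% in the change between them, in either direction.

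In the outer stripe, which holds the straight proximal tubule, both genes were below the cortex in normal sections, Clu by a log2 difference of -2.66 (-2.91 to -2.40) and Spp1 by -1.20 (-1.51 to -0.89). In ischemic sections the difference was -0.32 (-0.55 to -0.09) for Clu and -0.06 (-0.36 to 0.24) for Spp1. Clu's ischemic difference had an adjusted p of 0.030 and missed the threshold without either ischemic section (-0.33 and -0.30). The change with ischemia was 2.34 ± 0.16 for Clu (adjusted p = 2.60e-08, edgeR) and 1.14 ± 0.21 for Spp1 (adjusted p = 0.00043, edgeR). Without the section block the change of Spp1 missed the threshold (adjusted p = 0.052, edgeR). The share of all genes past the threshold was 23.3% in normal sections, 36.9% in ischemic sections and 22.1% for the change.

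In the inner medulla, rich in collecting ducts, Clu was below the cortex in normal sections by a log2 difference of -0.89 (-1.14 to -0.64) and above it in ischemic sections by 0.60 (0.37 to 0.83), a change of 1.49 ± 0.16 (adjusted p = 3.78e-06, edgeR). The latter was 0.49 when ischemic section 2 was left out (adjusted p = 0.055, edgeR). Spp1 was above the cortex in both conditions, by 0.74 (0.43 to 1.05) and 0.94 (0.64 to 1.24), and its change of 0.20 (-0.23 to 0.63) did not pass (adjusted p = 0.60, edgeR). With zones drawn from the spot alone, the normal difference of Spp1 reversed to -0.19 and its change was 0.94 (adjusted p = 0.00025, edgeR). The difference between the genes was not tested. That change turned on the normal sections, at -0.28 without section 1 and 0.72 without section 2 (adjusted p = 3.26e-05, edgeR), and the normal difference itself was 0.22 without section 2 (adjusted p = 0.13, edgeR). Of all genes, 40.2% passed in normal sections, 48.1% in ischemic sections and 14.7% for the change.

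The zones themselves were drawn less evenly in the inner medulla, which took 139 and 240 spots in normal kidney, against 314 and 330 in ischemic kidney. The 6 cortex markers summed to 2693 and 2808 CPM in normal kidney, against 596 and 555 CPM in ischemic kidney, and the 5 outer stripe markers to 1866 and 1605 against 296 and 306 CPM. Within the inner medulla zone, erythroid markers went from 49948 and 16009 to 530.4 and 892 CPM, adipocyte markers from 3327 and 514 to 0.73 and 0.79 CPM, pelvis markers from 893 and 2195 to 4.72 and 59.3 CPM and inner medulla markers from 5373 and 6341 to 2011 and 2684 CPM. Within the pelvis zone, pelvis markers went from 5215 and 6336 to 766 and 1116 CPM and inner stripe markers from 1789 and 2959 to 4013 and 3351 CPM. Within the inner stripe zone, inner stripe markers went from 9969 and 14639 to 7241 and 7175 CPM and inner medulla markers from 820 and 1440 to 1447 and 1739 CPM. Inner stripe markers within the inner medulla zone were 2860 and 5726 CPM in normal kidney, against 5777 and 5697 CPM in ischemic kidney. The inner stripe, inner medulla and pelvis zones thus differed in make-up between the conditions. The part of these shifts in the zone results was not tested.

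The distribution of UMIs over the kidney moved with the levels. The cortex held 51.5% and 33.0% of the Spp1 UMIs in normal kidney, against 30.4% and 24.3% in ischemic kidney. The inner stripe went from 8.63% and 8.31% to 25.2% and 29.6%, and the pelvis from 23.0% and 32.3% to 4.64% and 5.04%. For Clu the cortex went from 73.6% and 58.3% to 34.3% and 27.9%, and the inner stripe from 2.19% and 1.71% to 22.5% and 25.6%. The conditions did not overlap in any of these shares. Of all UMIs, the cortex held 46.7% and 43.9% in normal kidney, against 40.5% and 35.9% in ischemic kidney. The inner stripe held 12.6% and 9.25% against 13.0% and 15.4%, and the pelvis 3.10% and 5.41% against 3.99% and 4.86%.

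The ratio of the genes differed between normal zones and less so after ischemia. There were 2.55 and 2.36 Spp1 UMIs per Clu UMI in the normal cortex, but 14.4 and 20.2 in the normal inner stripe. In ischemic sections these were 7.60 and 7.29 in the cortex and 9.60 and 9.70 in the inner stripe. The normal inner stripe ratio rests on 195 and 139 Clu UMIs.

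**Figure D3:**
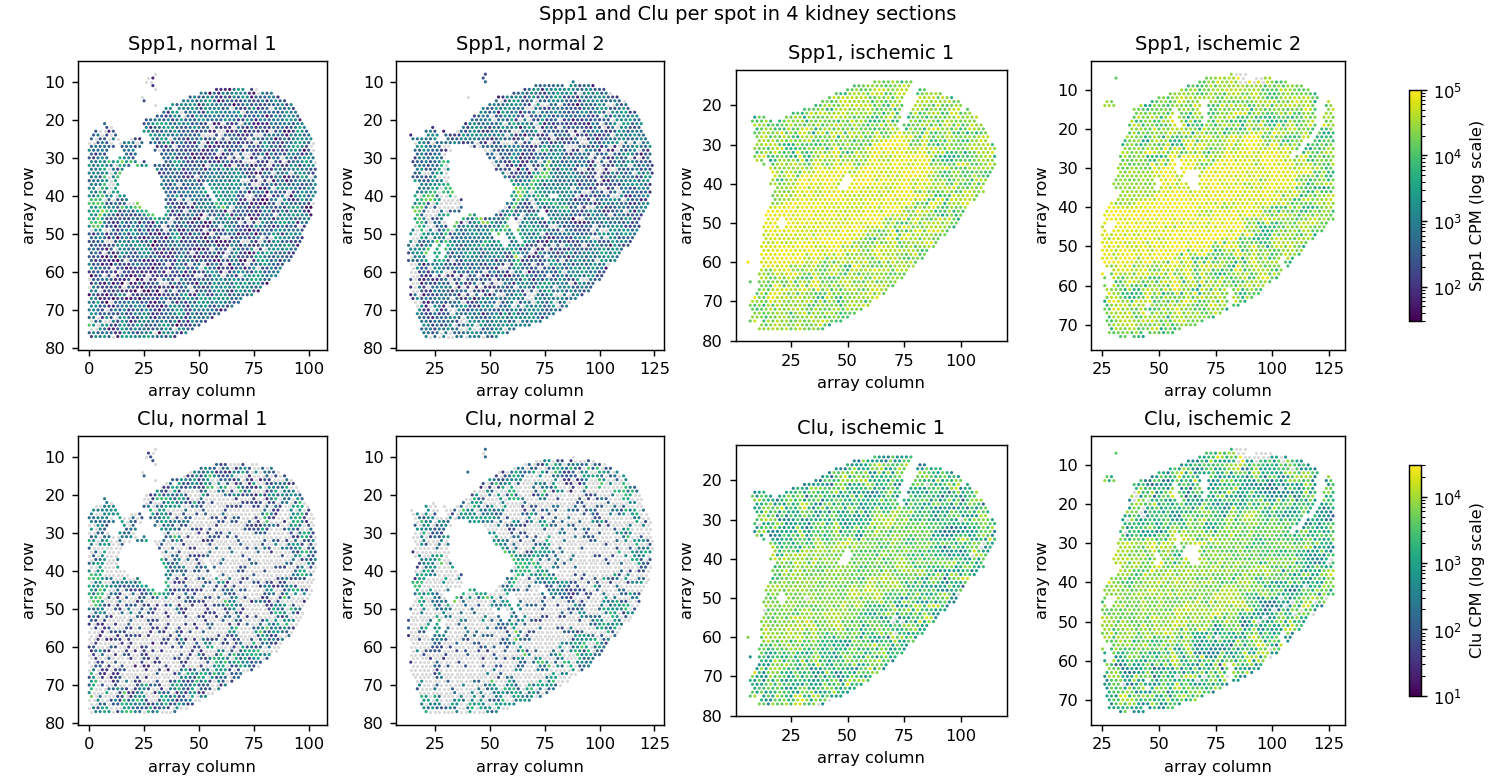
Spp1 (top) and Clu (bottom) in each tissue spot of the 4 sections, placed by array column and row, coloured by CPM on a log scale; grey spots had no UMI. Normal sections show scattered high spots in cortex and pelvis. They had a Spp1 UMI in 92.1% and 87.7% of spots and a Clu UMI in 52.8% and 44.4%. The ischemic sections are filled, with a band of high Spp1 through the medulla.

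At the level of single spots, Clu went from patchy to near-universal, while Spp1 was already found in most normal spots. Spp1 had a UMI in 92.1% and 87.7% of normal spots and in 100% and 99.6% of ischemic spots. Clu had one in 52.8% and 44.4% of normal spots and in 99.4% and 98.0% of ischemic spots. When each spot was thinned to 2000 UMIs, with 48 to 150 shallower spots per section left out, Spp1 was seen in 54.2% and 61.8% of normal spots and in 100% and 100% of ischemic spots. Clu was then seen in 19.8% and 23.3% against 93.9% and 91.9%. The difference in detection was thus present at equal depth.

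The median spot held 355 and 493 CPM of Spp1 in normal kidney, against 34241 and 33579 CPM in ischemic kidney. The 10th percentile was 10813 and 9023 CPM in ischemic kidney, beside 99th percentiles of 9226 and 14537 CPM in normal kidney. The low end of the ischemic spots thus lay near the high end of the normal ones. The single highest spot gave 2.88% and 4.37% of its own UMIs to Spp1 in normal kidney, against 12.4% and 14.2% in ischemic kidney. For Clu the median spot was 36.4 and 0 CPM in normal kidney, against 3888 and 3915 CPM in ischemic kidney. The highest Clu spot of ischemic section 2, at 62500 CPM, was a shallow one, and among spots of at least 500 UMIs the highest was 27894 CPM.

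**Figure D4:**
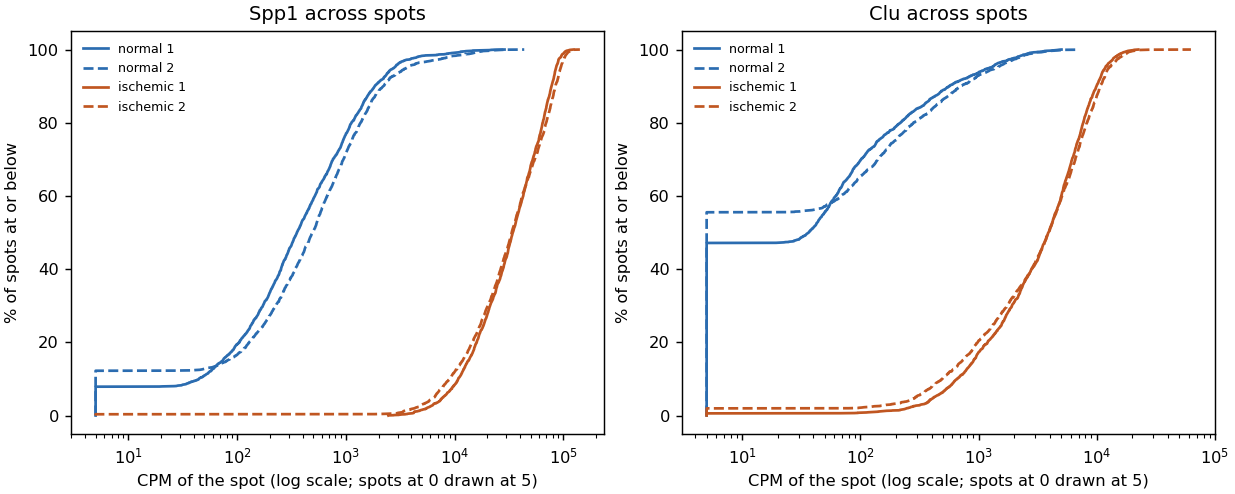
Percentage of spots at or below each CPM for Spp1 (left) and Clu (right) in the 4 sections, on a log axis with spots at 0 drawn at 5. The ischemic curves (orange) are shifted right of and steeper than the normal ones (blue), with medians of 34241 and 33579 against 355 and 493 CPM for Spp1.

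Normal expression was concentrated in few spots. Spots were ranked here by the gene's own UMIs, not scaled for depth. The top 10% held 51.5% and 64.9% of Spp1 UMIs in normal kidney, against 26.2% and 29.2% in ischemic kidney. For Clu they held 73.5% and 77.0% against 31.5% and 35.1%. After thinning, the coefficient of variation over spots was 2.23 and 2.34 in normal kidney, against 0.64 and 0.69 in ischemic kidney for Spp1, and 2.83 and 2.60 against 0.85 and 0.89 for Clu. Part of the normal value is counting error, since the mean thinned Clu count there was 0.42 and 0.51 UMIs per spot. The Fano factor, the variance over the mean, went the other way with the level, from 8.35 and 12.5 to 33.0 and 39.3 for Spp1 and from 3.38 and 3.48 to 6.74 and 7.71 for Clu.

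The cortex held fewer of the highest spots after ischemia. Of the top 10% of spots for Spp1, now ranked by CPM, the cortex held 56.5% and 32.3% in normal kidney. In ischemic kidney it held 0.83% and 1.15%, and the inner stripe 58.1% and 56.9%. Of all spots the cortex made up 45.0% and 43.1% in normal kidney and 39.7% and 36.6% in ischemic kidney. The inner stripe made up 16.1% and 19.1% of ischemic spots. For Clu the cortex held 74.8% and 62.5% of normal top spots and still 32.0% and 25.2% of ischemic ones, beside 32.4% and 35.1% in the inner stripe. The genes shared 56.1% and 50.6% of their top spots in normal kidney, against 35.3% and 38.9% in ischemic kidney. Over all spots Spearman's rho of the pair was 0.786 and 0.767 in ischemic and 0.383 and 0.373 in normal kidney, where the median spot held 36.4 and 0 CPM of Clu. The part of counting error in that difference was not tested. In the normal inner stripe the rho was -0.109 and 0.213, and in the ischemic inner stripe 0.593 and 0.634. The normal inner stripe held only 195 and 139 Clu UMIs, too few for its rho to be read. In the pelvis it was lower after ischemia, at 0.467 and 0.306 against 0.624 and 0.650. The spots of a section share 1 library and differ in depth, so these are descriptions.

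The genes that varied most with Clu from spot to spot in the normal cortex were those of the distal convoluted and connecting tubule. Among 9911 genes over 1174 and 1154 cortical spots, the highest Pearson correlations on log2(CPM + 50) were with Calb1, which encodes the calcium-binding calbindin (0.79 and 0.70), Defb1, a beta-defensin (0.77 and 0.68), S100g, a second calbindin (0.75 and 0.67), the kallikrein gene Klk1 (0.79 and 0.67) and the sodium-calcium exchanger Slc8a1 (0.71 and 0.61). Slc12a3, the sodium-chloride cotransporter of the distal convoluted tubule and 1 of the markers that drew the cortex, came 9th (0.60 and 0.52). Spp1 kept partly the same company in the normal cortex, led by Klk1 (0.57 and 0.52) and S100g (0.55 and 0.46). Proximal tubule genes lay at the other end in the cortex, with Kap at -0.65 and -0.42 for Spp1 and the fatty acid transporter Slc27a2 at -0.50 and -0.36 for Clu. Spp1 in the normal outer stripe varied most with Gatm (0.36 and 0.34). Slc5a2, another marker that drew the cortex, came 4th there (0.40 and 0.33), while Kap was lowest (-0.56 and -0.51).

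In the normal inner stripe Spp1 varied with Mt1, a metallothionein (0.74 and 0.54), and with genes of the thick ascending limb, Slc12a1, the sodium-potassium-chloride cotransporter (0.73 and 0.52), and Umod, uromodulin (0.74 and 0.50). Both of these also served to draw the zone. Clu, with 195 and 139 UMIs in that zone, was too sparse there to be read. In the normal pelvis the pair shared companions. Clu varied with the urothelial gene Upk1a, a uroplakin (0.74 and 0.68), and with the keratin Krt19 (0.61 and 0.72), and Spp1 with Upk1a at 0.55 and 0.53 and with Clu at 0.59 and 0.59.

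Over all normal spots Clu was already the gene that varied most with Spp1 among 10144 (0.49 and 0.44), and Spp1 came 7th for Clu. After ischemia the pair also shared a spot pattern. Over all ischemic spots Spp1 varied most with Mt1 (0.76 and 0.78), Defb1 (0.75 and 0.76), Cd24a (0.77 and 0.75) and Clu (0.78 and 0.75), and also with Lcn2 (0.72 and 0.72) and Umod (0.68 and 0.69). Clu varied most with Ly6a (0.80 and 0.77), Cd24a (0.78 and 0.75) and Spp1. Both ran opposite to the proximal tubule gene Kap, at -0.73 and -0.72 for Spp1 and -0.56 and -0.59 for Clu. Havcr1, although it rose in the same sections, also ran opposite, at -0.62 and -0.60 with Spp1 and -0.50 and -0.52 with Clu. Within the ischemic outer stripe Havcr1 was among the 5 lowest genes for both, at -0.60 and -0.59 for Spp1 and -0.55 and -0.53 for Clu. In the ischemic cortex, where Havcr1 rose most, the values were weaker, at -0.23 and -0.19 for Spp1 and -0.26 and -0.25 for Clu.

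**Figure D5:**
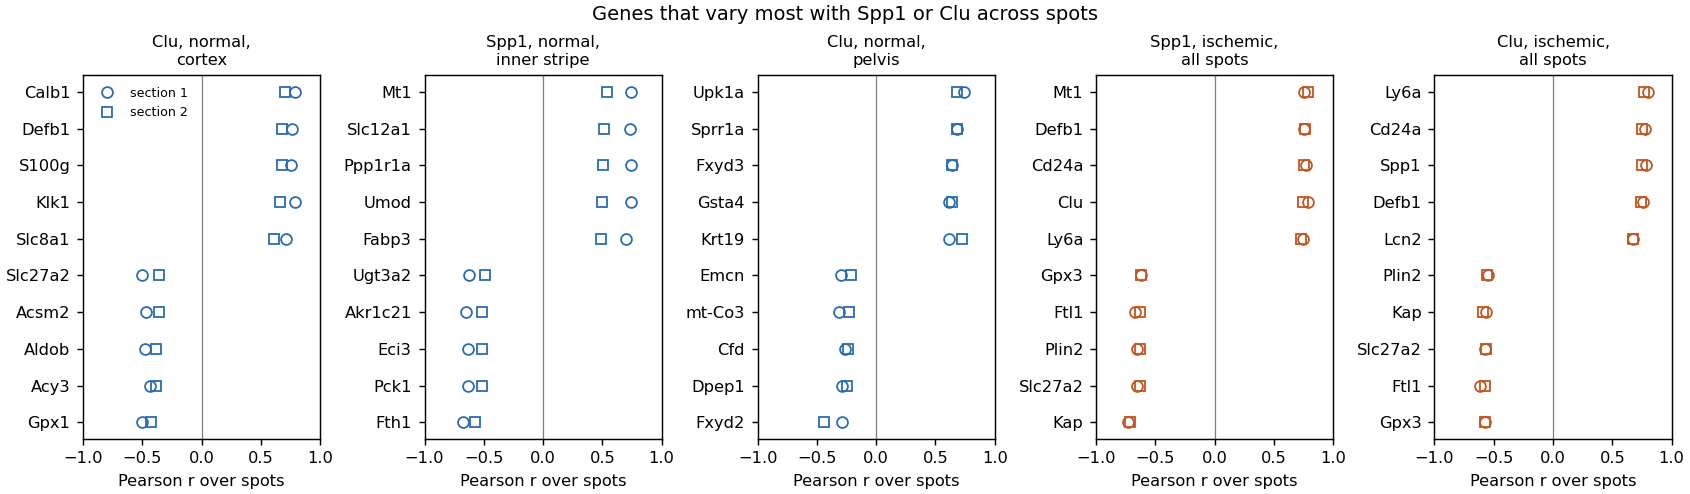
Pearson correlation over spots of at least 500 UMIs, on log2(CPM + 50), of Clu or Spp1 with the 5 highest and 5 lowest genes, for the condition and zone named above each panel; circles are section 1 and squares section 2. Distal tubule genes lead for Clu in the normal cortex (Calb1, 0.79 and 0.70), urothelial genes in the normal pelvis (Upk1a, 0.74 and 0.68), and Kap is lowest for Spp1 in ischemic sections (-0.73 and -0.72).

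Across the 20 section-by-zone profiles, on log2(CPM + 1), the gene most like Spp1 among 9152 was Ppp1r14b (Pearson's r = 0.99), and Clu came in place 31 (r = 0.97). The gene most like Clu was Spp1, and by rank correlation Spp1 came in place 11 for Clu and Clu in place 103 for Spp1. The profiles share sections and fall into 2 conditions, so many genes have high values of this kind.

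The proteins that bind or process osteopontin were read next in the whole-section test. Of 10 receptor genes tested, 7 rose and 3 fell, with a median log2 fold change of 1.14 beside 0.04 over all genes, of which 31.0% rose and 29.7% fell. Itga5, an integrin alpha chain, rose from 3.57 and 4.85 to 42.6 and 42.6 CPM (log2 fold change 3.09 ± 0.11, SE), and Cd44 from 2.00 and 3.69 to 22.1 and 21.5 CPM (2.72 ± 0.17). The alpha chain Itgav, a partner of most RGD-binding integrins, went from 86.2 and 97.4 to 263 and 266 CPM (1.26 ± 0.12). Itga8, a chain of mesangial and interstitial cells, fell from 10.9 and 15.5 to 3.48 and 3.66 CPM (fell by 2.14 on the log2 scale).

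Of 8 enzymes that modify or cleave osteopontin, 4 rose and 4 fell, with a median of 0.18, beside 31.0% and 29.7% of all genes. The matrix metalloproteinase Mmp7 rose from 0.56 and 1.01 to 13.8 and 12.2 CPM (3.83 ± 0.21) and the crosslinking transglutaminase Tgm2 from 79.3 and 90.1 to 238 and 260 CPM (1.28 ± 0.12). The kinase Fam20c, which phosphorylates osteopontin, fell from 64.4 and 63.8 to 36.6 and 39.6 CPM, and the prothrombin gene F2 from 0.97 and 0.94 to 0.16 and 0.27 CPM. None of the 4 other SIBLING genes, the family of osteopontin, had enough counts for the test. Ibsp and Mepe had 0 UMIs in all sections, Dmp1 had 1 UMI in ischemic section 2 and Dspp had 4 in each ischemic section.

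Of 4 clusterin receptor genes 1 rose and 1 fell, beside 31.0% and 29.7% of all genes. Lrp8 rose from 0.83 and 0.83 to 9.21 and 10.1 CPM (3.24 ± 0.20), while Lrp2, which encodes the endocytic receptor megalin of the proximal tubule, fell from 550.0 and 528 to 137 and 128 CPM (fell by 2.31 on the log2 scale). Vldlr at -0.07 and Trem2 at 0.17 did not pass the test. Of 6 terminal complement genes 2 had enough counts, and C8a fell from 16.5 and 13.4 to 0.52 and 0.85 CPM and C8g from 41.7 and 34.7 to 5.18 and 3.93 CPM. Among other inhibitors of the membrane attack complex Cd59a fell by 0.56 on the log2 scale and Vtn, at 0.28, did not pass. The extracellular chaperone Hp fell from 10.5 and 5.42 to 5.86 and 5.32 CPM (adjusted p = 0.046, edgeR), and A2m had too few counts.

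Of 10 tubular injury genes 8 rose, 1 fell and 1 did not pass, with a median of 2.29, beside 31.0% of all genes that rose and 29.7% that fell. Beside Havcr1 and Lcn2, the keratin Krt20 rose from 0.38 and 0.61 to 224 and 243 CPM (8.64 ± 0.18) and the transcription factor Sox9 from 0.34 and 0.22 to 13.9 and 16.8 CPM (5.41 ± 0.25). Timp2 fell by 0.45 on the log2 scale, and Igfbp7, at -0.13, did not pass. In fold change Spp1 and Clu stood below these 4 risen genes, while by share of UMIs Spp1 stood above all 10 in the ischemic sections. In normal section 1 Igfbp7 stood above Spp1, at 864 against 729 CPM. Over the lists, 33 genes were called and none changed sign under another scaling, but with total counts Cd59a, Hp, Itga4, Itgb5 and Timp2 no longer passed. Hp, Itga4, Itgb3, Itgb5, Timp2 and Vcam1 each lost their call without 1 of the sections.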

How the data were processed

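The 10x Visium counts of 4 sections were used; the single-cell data were not analysed here. Per the labels and the file headers, the authors aligned reads to mm10 with Space Ranger 1.3.0 and deposited unnormalised UMI counts for each tissue spot, which were used with no spot removed. CPM is UMIs per 1000000 UMIs of a section, zone or spot. Positions came from GENCODE M21 and the promoter from RefSeq.

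Each spot was given the zone whose marker list was highest over the spot and up to 6 neighbours (z-scored log2(CPM + 1)), with the pelvis first (at least 10 list counts and the top 5% of spots). Sums per section, or per section and zone of at least 20 spots, were tested with edgeR 4.0.16 in R 4.3.3 (TMM, filterByExpr, quasi-likelihood, Benjamini-Hochberg over all genes, threshold 0.05). Zones of a section were compared with section as a block. Intervals are 95% t intervals, and sections are the replicates of the whole-section test (2 against 2). The zone tests shared 1 estimate of spread over all section-by-zone sums. Those of ischemic against normal had no section term, so zones of the same section counted as separate samples.

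In simulated data 200 genes per test were changed by 2 on the log2 scale, up or down. The whole-section test recovered 197 of 200 with 13 false calls among 15391 genes. The normal inner stripe against cortex test recovered 200 with 9 among 14150. In the real whole-section test 9279 genes passed, far more than were changed here, so these false calls do not measure those of the real contrasts. Members and gene lists were chosen with earlier results of these data known; the spot correlations and the genes named from them were chosen after seeing the data. Named genes were Spp1, Clu, the label checks Havcr1 and Lcn2, list members with the largest changes, and the genes most like the pair. Alternatives tried were DESeq2 1.42.0, other scalings, filters, zone rules and blocks, and leaving out each section.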

Additional observations from a re-analysis of the deposited data

Results flagged for a closer look

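The contrast of a zone with the cortex differed between ischemic and normal sections in 5 of 6 interaction tests (edgeR, section as a block). On the log2 scale the outer stripe changed by 1.14 for Spp1 and 2.34 for Clu, and the inner stripe by 1.56 for Spp1 and 3.96 for Clu. The inner medulla changed by 1.49 for Clu. Many of all 14001 genes passed the same tests in either direction: 22.1% (outer stripe), 18.7% (inner stripe) and 14.7% (inner medulla). With no section block, the Spp1 change of the outer stripe fell short of the threshold (adjusted p = 0.052, edgeR). Groups of 2 sections are too small for the test of single outlying samples.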

How the results depend on the processing

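Of 30 tested results, 23 kept their direction and side of the threshold in every alternative run, among them the rise of both genes in whole sections and in all 5 zones. Leaving out 1 section at a time gave log2 fold changes of 4.79 to 5.23 for Spp1 and 3.77 to 4.01 for Clu in whole sections.

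The other results concern zones against the cortex. Spp1 in the normal inner stripe missed the threshold with total counts (-0.23), without zone boundaries (-0.27) and without the section block (-0.42), and ranged from -0.83 to -0.10 without 1 section. Spp1 in the ischemic outer stripe lay at 0.0165 with no filter and 0.00977 with the leading marker left out, and from -0.0737 to 0.00960 without 1 section. Spp1 in the normal inner medulla was -0.19 with zones from the spot alone, and 0.22 to 1.25 without 1 section. Its change there was 0.31 with no filter, 0.94 with zones from the spot alone, and -0.28 to 0.72 without 1 section. Clu in the ischemic outer stripe missed the threshold with DESeq2 (-0.28), the leading marker left out (-0.25), the spot alone (-0.36) and no section block (-0.32), and ranged from -0.33 to -0.25 without 1 section. Clu in the ischemic inner medulla ranged from 0.49 to 0.69. The change of Spp1 in the outer stripe was 1.09 without the section block (adjusted p = 0.052, edgeR). The cause was not tested.

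The number of genes past the threshold was 9279 (51.1% higher), with 6493 to 10877 without 1 section, 7634 by DESeq2 and 10196 with no filter. With total counts in place of TMM it was 8582, of which 67.0% were higher, and the median of all genes moved from 0.04 to 0.31. Normal and ischemic sections share replicate numbers, but no label says what a number marks. Over the genes tested, the deviations of normal section 1 and ischemic section 1 from their group means correlated at 0.20. With the replicate number as a block, 10089 genes passed and the log2 fold changes were 5.02 for Spp1 and 3.90 for Clu.

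Spread over spots moved with depth. Thinned to 2000, to 1000 and not at all, the mean Fano factor of Spp1 was 10.4, 5.78 and 90.1 in normal, against 36.1, 18.7 and 267 in ischemic kidney, while that of Clu was 3.43, 2.25 and 28.0 in normal, against 7.23, 4.16 and 51.1 in ischemic kidney. Spots with a Spp1 UMI were 58.0%, 41.7% and 89.9% in normal, against 100%, 99.9% and 99.8% in ischemic kidney, while those with a Clu UMI were 21.5%, 14.0% and 48.6% in normal, against 92.9%, 85.5% and 98.7% in ischemic kidney.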
